A study of Mus musculus with 6 samples.

Results

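The HOX cluster genes of the mouse knee joint cartilage were taken as every protein-coding gene of the count table with a symbol of Hoxa, Hoxb, Hoxc or Hoxd followed by digits alone. This gave 39 genes among 55487 rows, with 11 in cluster A, 10 in cluster B, 9 in cluster C and 9 in cluster D. Poly(A) RNA of knee cartilage from mice at postnatal day 6 (P6) was sequenced in 3 wild-type (WT) libraries and 3 libraries whose chondrocytes had lost *Hbb* by conditional knockout (*Hbb*-cKO). *Hbb* here stands for *Hbb-bs* and *Hbb-bt*, the adult β-globin genes, whose floxed alleles were made on a C57BL/6J background. In the study, chondrocyte deletion was driven by *Col2a1*-CreERT2, a Cre that needs tamoxifen, and a *Prx1*-Cre line that acts in limb mesenchyme was also used. Which of these lines and what dosing gave the sequenced mice, what alleles the WT mice carried and how many mice made up 1 library could not be read from the labels or methods. The p-values therefore measure the spread between libraries.

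HOX genes encode transcription factors that bind DNA through a homeodomain and give cells their position along the body axis. They lie in clusters in which the order on the chromosome matches the order of expression along the axis, and genes of equal number in different clusters are paralogues that descend from 1 ancestral gene. In the limb, the posterior genes pattern the skeleton from the shoulder or hip outwards, with groups 9 and 10 acting mainly in the upper segment, group 11 in the middle segment and group 13 in the hand or foot. Many cells of the adult skeleton keep the HOX pattern of the region in which they arose.

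*Hbb-bs* was at 6394, 5016 and 2848 CPM (counts scaled to TMM-normalized library sizes and given per 1e+06) in WT replicates 1 to 3 and at 1606, 2257 and 2006 CPM in *Hbb*-cKO replicates 1 to 3. The genotypes did not overlap, with a log2 fold change of -1.28 ± 0.30 (s.e.) that did not pass the test (edgeR, adjusted p = 0.218), and *Hbb-bt* had -1.32 ± 0.32 (adjusted p = 0.241). Library totals ran from 16544800 to 20969914 counts. The 8 chondrocyte markers, which include the cartilage collagen *Col2a1* and the proteoglycan *Acan*, were all present and summed to 31549 to 39916 CPM in WT and 16365 to 54160 CPM in *Hbb*-cKO, where replicate 1 was lowest and replicate 2 highest. The 8 skeletal muscle markers were also present, at 28615 to 45887 CPM in WT and 22913 to 31746 CPM in *Hbb*-cKO, so the libraries were not cartilage alone. The 7 neutrophil markers summed to 16.4 to 36.1 CPM in WT and 26.0 to 120 CPM in *Hbb*-cKO, and the 4 fibroblast and skin markers to 240 to 294 CPM in WT and 338 to 408 CPM in *Hbb*-cKO. The 4 endothelial markers summed to 363 to 433 CPM in WT and 458 to 521 CPM in *Hbb*-cKO. This sum and that of the fibroblast and skin markers were higher in every *Hbb*-cKO library than in any WT library. That did not hold for every gene within these lists. Counts of 4 Y-linked genes were 0 in WT replicates 1 and 2 and summed to 57.4 to 146 CPM in the other 4 libraries. In such bulk samples, fewer cells that carry a transcript and less of it per cell cannot be told apart.

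The joint carried the hindlimb markers. *Pitx1*, the homeodomain factor that sets hindlimb identity, was at 111, 154 and 90.0 CPM in WT and 111, 116 and 119 CPM in *Hbb*-cKO. *Tbx4*, the T-box factor of the hindlimb, was at 37.9, 39.5 and 40.7 CPM in WT and 31.1, 36.8 and 33.4 CPM in *Hbb*-cKO, without overlap and with an adjusted p of 0.550 (edgeR). *Tbx5*, its forelimb counterpart, was not absent, at 7.19, 6.75 and 8.94 CPM in WT and 5.23, 4.96 and 5.57 CPM in *Hbb*-cKO.

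Of the 39 HOX genes, 36 had at least 1 count and 32 passed the expression filter of the test. *Hoxb1*, *Hoxb13* and *Hoxd12* had no count in any library, which allows up to 0.0275 CPM over the 6 libraries together, by counting error only. *Hoxc12*, *Hoxc13*, *Hoxd1* and *Hoxd13* had 4, 22, 13 and 37 counts in all and were not tested. The 39 genes together held 5496 to 7018 counts per library. The genes at each end of the numbering were thus the ones that were scarce or without counts.

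To compare levels between genes, CPM were divided by the kilobases covered by the exons of each gene. On this scale the HOX profile peaked at paralogue group 10, whose members summed to 37.8 CPM per kb in WT. Group 9 followed with 24.6, group 8 with 14.2, group 11 with 11.7 and group 4 with 10.1 CPM per kb. The sum was 7.06 for group 7, 6.64 for group 5 and 5.34 for group 6, and 2.21 and 2.17 CPM per kb for groups 2 and 3. It dropped steeply beyond group 11, to 0.037 CPM per kb for group 12 and 0.74 for group 13. In *Hbb*-cKO the leading sums were 38.8 for group 10, 23.96 for group 9, 13.2 for group 8, 11.6 for group 11 and 10.4 for group 4, in the same order.

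**Figure D1:**
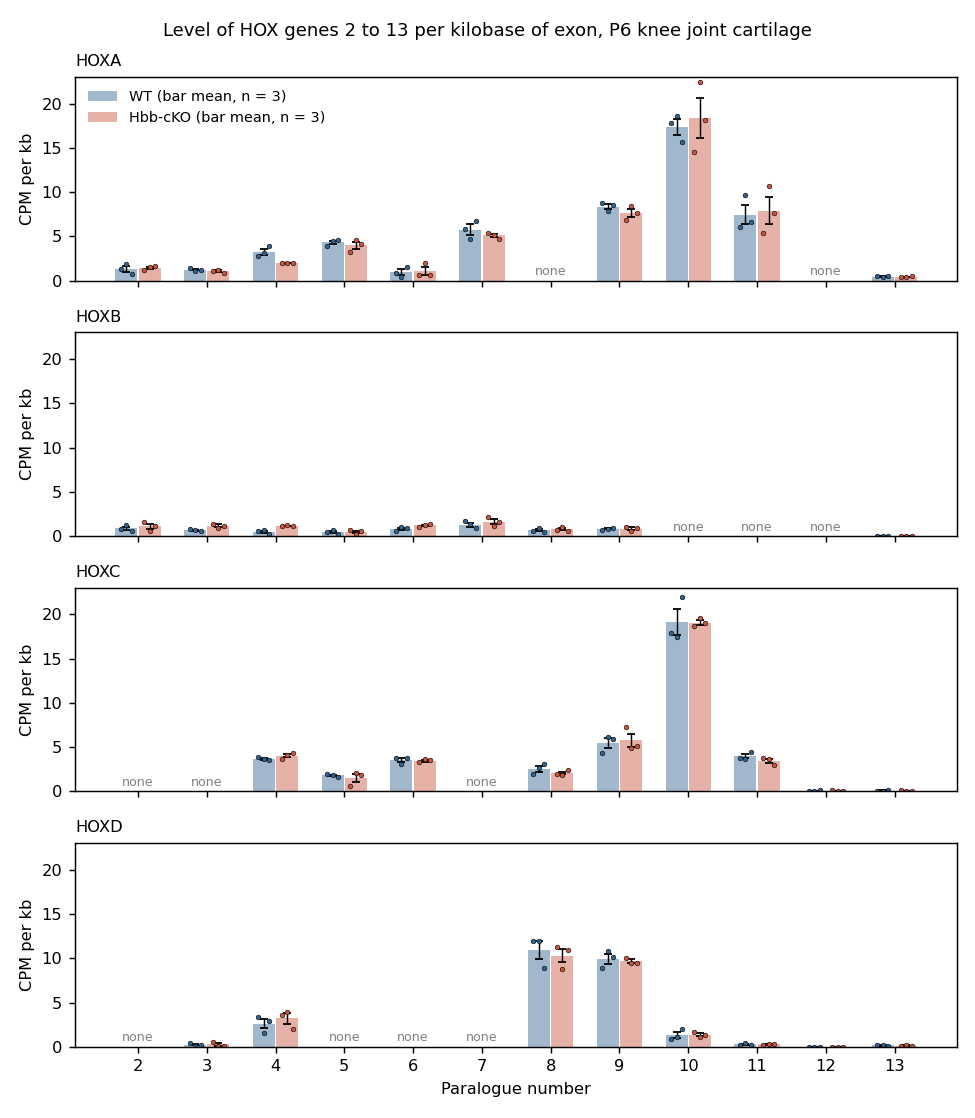
Level of the HOX genes in CPM per kilobase of exon (linear axis) by paralogue number from 2 to 13, with 1 panel per cluster, bars for the mean of 3 WT or 3 *Hbb*-cKO libraries, error bars for the s.e.m. and points for single libraries; "none" marks a number with no gene in that cluster. *Hoxc10* and *Hoxa10* stand highest, cluster B stays below 2.1 CPM per kb, and the bars of both genotypes have much the same shape.

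To show how paralogues differ in sequence, an example is given from groups 10 and 11. Shown are the last 60 bases of the homeobox, which include the codons of the third helix that contacts DNA. They were read from the GENCODE M21 transcripts of GRCm38, 5′ to 3′ on the coding strand. Capitals mark bases that differ from the cluster A copy of the same group, which is in lower case throughout.
Hoxa10: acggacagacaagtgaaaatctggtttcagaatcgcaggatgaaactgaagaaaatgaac
Hoxc10: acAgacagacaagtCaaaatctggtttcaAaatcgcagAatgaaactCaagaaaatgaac
Hoxd10: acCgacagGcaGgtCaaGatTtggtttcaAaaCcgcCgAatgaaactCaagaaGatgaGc
Hoxa11: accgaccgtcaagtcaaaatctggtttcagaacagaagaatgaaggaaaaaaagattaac
Hoxc11: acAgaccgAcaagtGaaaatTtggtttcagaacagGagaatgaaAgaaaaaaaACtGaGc
Hoxd11: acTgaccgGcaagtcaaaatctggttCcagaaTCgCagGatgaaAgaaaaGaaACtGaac
Within group 10, *Hoxc10* differed from *Hoxa10* at 5 of these 60 bases and *Hoxd10* at 13. Over the whole homeobox of 180 bases, pairs of equal number were 67.2 to 93.9% identical, with a median of 80.6% over 42 pairs, and pairs of different number had a median of 60.6% over 699 pairs.

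*Hoxc10* and *Hoxa10*, both of which take part in patterning of the thigh segment, led all members in the level per kb. *Hoxc10* (chr15:102966796-102971893, GRCm38) was at 17.9, 17.4 and 22.0 CPM per kb in WT and 18.7, 19.6 and 19.0 CPM per kb in *Hbb*-cKO. *Hoxa10* (chr6:52231197-52240854) was at 17.8, 18.6 and 15.7 CPM per kb in WT and 14.6, 22.4 and 18.2 CPM per kb in *Hbb*-cKO. The ranges of these genes overlapped in WT, so their order is not resolved, whereas both lay above every other member in each WT library. They made up 50.5% and 46.0% of group 10 in WT, and *Hoxd10* made up 3.52%.

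*Hoxd8* (chr2:74704615-74707933) followed, at 12.004, 11.99 and 8.94 CPM per kb in WT and 11.3, 8.75 and 10.9 CPM per kb in *Hbb*-cKO. *Hoxd9*, its neighbour in the cluster (chr2:74697727-74700208), was at 8.86, 10.8 and 10.1 CPM per kb in WT and 10.1, 9.48 and 9.48 CPM per kb in *Hbb*-cKO. These genes led cluster D and overlapped each other, whereas the next posterior genes of the same cluster were far lower. *Hoxd10* was at 0.86 to 2.03 and *Hoxd11* at 0.21 to 0.38 CPM per kb over the 6 libraries. The level per kb thus stepped down between *Hoxd9* and *Hoxd10* within cluster D, while in clusters A and C number 10 stood above number 9.

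*Hoxa9* (chr6:52223100-52231089) was at 8.75, 7.85 and 8.51 CPM per kb in WT and 6.91, 8.47 and 7.65 CPM per kb in *Hbb*-cKO. *Hoxa11* (chr6:52242106-52245810), a gene of the shank and forearm segment, was more variable, at 6.10, 9.65 and 6.68 CPM per kb in WT and 5.39, 10.7 and 7.65 CPM per kb in *Hbb*-cKO. In *Hbb*-cKO, *Hoxa11* and *Hoxa10* were lowest in replicate 1 and highest in replicate 2, the libraries with the lowest and highest sums of chondrocyte markers. In WT, that sum and both genes were highest in replicate 2. The WT sum and *Hoxa10* were lowest in replicate 3, whereas *Hoxa11* was lowest in replicate 1. The part of cell makeup in this spread was not tested. Group 11 was carried by *Hoxa11* at 63.8% and *Hoxc11* at 33.9% in WT, with *Hoxd11* at 2.34%. *Hoxa13*, which acts in the foot, was at 0.39 to 0.49 CPM per kb, and *Hoxd13* had 2 to 8 counts per library.

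Ranked by the WT mean per kb, the members that followed were *Hoxa7* at 5.78 ± 0.57, *Hoxc9* at 5.49 ± 0.58, *Hoxa5* at 4.35 ± 0.20, *Hoxc11* at 3.97 ± 0.25, *Hoxc4* at 3.71 ± 0.12, *Hoxc6* at 3.57 ± 0.24, *Hoxa4* at 3.27 ± 0.31, *Hoxd4* at 2.61 ± 0.54, *Hoxc8* at 2.55 ± 0.34 and *Hoxc5* at 1.82 ± 0.07 CPM per kb (mean ± s.e.m., n = 3). Along the WT order of all members with counts, 4 steps separated neighbours whose libraries did not overlap. These were *Hoxa10* over *Hoxd8*, *Hoxd9* over *Hoxa9*, *Hoxc8* over *Hoxc5* and *Hoxa13* over *Hoxd11*, and all other neighbours overlapped. *Hoxc10*, *Hoxa10*, *Hoxd8* and *Hoxd9* held ranks 1 to 4 per kb in both genotypes. This order depends on the exon lengths used, such as 5.58 kb for *Hoxa9* and 2.14 kb for *Hoxd9*. Without division by length, the WT means were 56.8 CPM for *Hoxa10*, 46.7 for *Hoxa9*, 36.5 for *Hoxc10*, 30.1 for *Hoxd8* and 21.2 for *Hoxd9*.

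Cluster B, whose genes act in the hindbrain, trunk and blood lineages, was low throughout. Its highest members in the mean of the 6 libraries were *Hoxb7*, *Hoxb6* and *Hoxb2*, at 1.45, 1.02 and 0.98 CPM per kb. *Hoxb7* had 43, 34 and 23 counts in WT and 57, 36 and 51 counts in *Hbb*-cKO. All 8 members of cluster B with counts summed to 6.28, 7.31 and 4.69 CPM per kb in WT and 9.66, 6.95 and 8.34 CPM per kb in *Hbb*-cKO.

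Summed over the 39 genes, the HOX level was 123 ± 1.71 CPM per kb in WT and 123 ± 3.66 CPM per kb in *Hbb*-cKO (n = 3 each). Cluster A held 49.1 ± 0.37% of the HOX counts in WT and 47.6 ± 2.98% in *Hbb*-cKO, cluster C held 26.8 ± 1.38% and 26.3 ± 0.71%, and cluster D 19.3 ± 0.52% and 19.3 ± 1.44%. The posterior genes (numbers 9 to 13) held 62.4 ± 1.05% in WT and 62.3 ± 1.45% in *Hbb*-cKO. The central genes (4 to 8) held 32.4 ± 0.74% and 31.7 ± 0.80%, and the anterior genes (1 to 3) 5.24 ± 0.40% and 5.99 ± 0.70%. For each of these shares the libraries of both genotypes overlapped. The share of cluster B was 4.93, 5.74 and 3.66% in WT and 8.26, 5.16 and 6.83% in *Hbb*-cKO, where replicate 2 lay inside the WT range. Shares of counts rest partly on transcript length, and per kb cluster A held 41.4 ± 0.48% in WT.

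**Figure D2:**
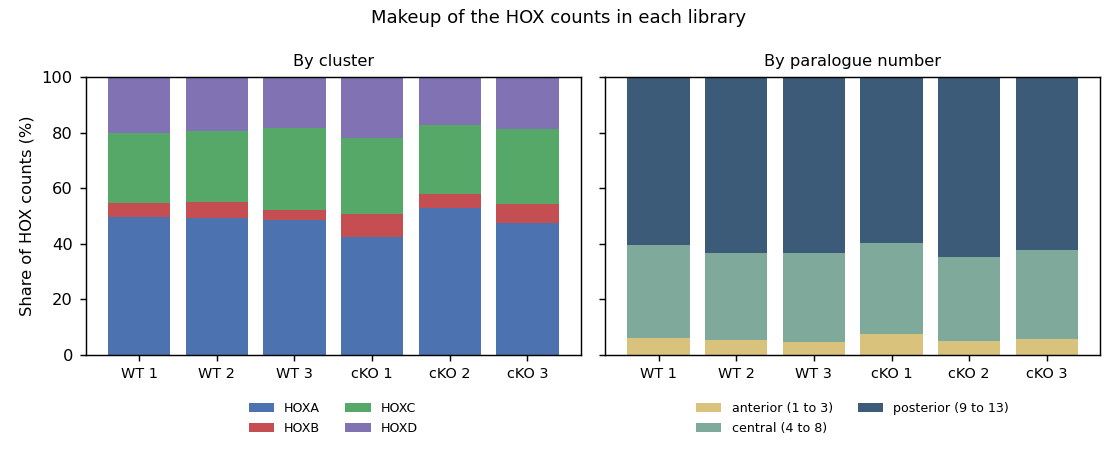
Share of the summed HOX counts (percent, stacked to 100) in each of the 3 WT and 3 *Hbb*-cKO libraries, by cluster on the left and by paralogue number on the right. Cluster A takes 42.4 to 52.8% and the posterior genes 59.8 to 64.9% of the counts in every library, and cluster B is the thinnest band at 3.66 to 8.26%.

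The design holds 1 contrast, *Hbb*-cKO against WT, and the HOX genes were read in the fit of all genes. No HOX gene passed the test at an adjusted p under 0.05 (edgeR, 0 of 32), where 0.105% of all 17175 genes tested did, 0.0349% with higher and 0.0699% with lower values in *Hbb*-cKO. At an unadjusted p under 0.05 stood 3 of the 32 HOX genes, with *Hoxb3* and *Hoxb4* higher and *Hoxa4* lower in *Hbb*-cKO, against 10.1% of all genes, 4.89% higher and 5.22% lower. DESeq2 also called 0 of 36 HOX genes, of which *Hoxc12* and *Hoxd1* were given no adjusted p and could not be called. It gave 3 an unadjusted p under 0.05, with *Hoxb4* lowest at an adjusted p of 0.192. The 3 genes were also the only HOX genes tested whose genotypes did not overlap, which held for 17.7% of all genes tested, 8.7% higher and 8.96% lower. The HOX genes were thus near or under the background on each measure.

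**Figure D3:**
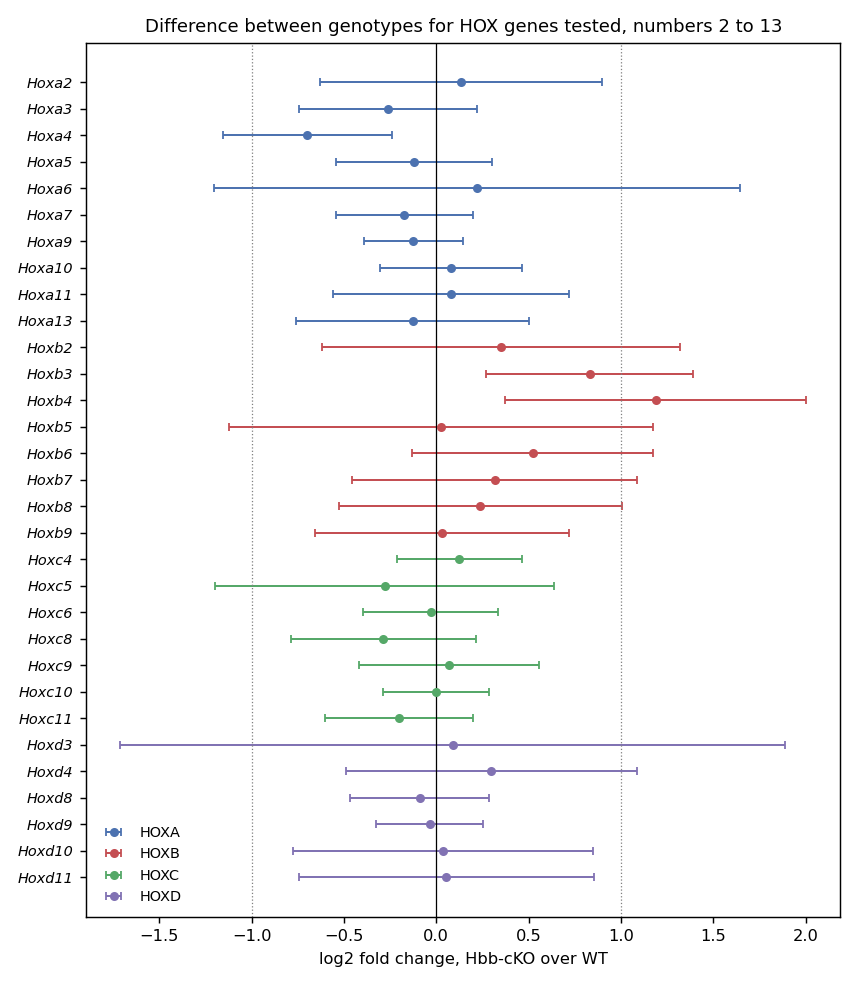
Log2 fold change of *Hbb*-cKO over WT for HOX genes tested, numbers 2 to 13 (points) with 95% intervals from the edgeR fit (lines), coloured by cluster, with dotted lines at a 2-fold change in each direction. *Hoxb3* and *Hoxb4* lie to the right of 0 and *Hoxa4* to the left with intervals that exclude 0 before adjustment, and the posterior genes sit close to 0.

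By class, posterior genes had the largest share of 95% intervals within a 2-fold change in each direction. This held for all 11 that were tested of the 16 posterior genes, for 6 of 15 central and 2 of 6 anterior genes. It held for 19 of the 32 HOX genes and 75.1% of all genes tested. *Hoxc10* had a log2 fold change of -0.0027 ± 0.12 (s.e.; interval -0.29 to 0.28), and that of *Hoxa10* was 0.082 ± 0.17 (-0.30 to 0.47). *Hoxd9* had -0.036 ± 0.13 (-0.33 to 0.25), *Hoxa9* -0.12 ± 0.12 (-0.39 to 0.15), *Hoxc9* 0.069 ± 0.21 (-0.42 to 0.55) and *Hoxa11* 0.082 ± 0.28 (-0.56 to 0.72). Their adjusted p-values ran from 0.781 to 0.998 (edgeR). The interval of *Hoxc10* was thus narrow, whereas those of *Hoxa11* and of *Hoxd10* (-0.78 to 0.85) were wider. The central gene *Hoxc4* (-0.21 to 0.46) had a narrower interval than either.

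Among central genes, *Hoxd8* had a log2 fold change of -0.090 ± 0.16, *Hoxc4* 0.13 ± 0.15 and *Hoxd4* 0.30 ± 0.34 (adjusted p of 0.908, 0.835 and 0.830 by edgeR). *Hoxc5* was at 5.93, 5.72 and 5.19 CPM in WT and 1.88, 6.31 and 5.62 CPM in *Hbb*-cKO, so that replicate 1 of *Hbb*-cKO stood alone. *Hoxd3* ranged from 7 to 43 counts, with 29, 7 and 17 in WT and 43, 8 and 12 in *Hbb*-cKO, and its interval of -1.71 to 1.89 was the widest among the HOX genes tested. For *Hoxd3*, a difference of 2-fold in either direction thus lay within the interval.

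*Hoxb4* (chr11:96318267-96321638), known for its part in blood stem cells, had the largest log2 fold change. It had 26, 27 and 11 counts in WT and 50, 62 and 59 counts in *Hbb*-cKO, or 1.56, 1.64 and 0.63 CPM against 2.84, 3.11 and 2.78 CPM. Every *Hbb*-cKO library was above every WT library, and WT replicate 3 was the lowest. The log2 fold change was 1.19 ± 0.35 (interval 0.37 to 2.003), with an unadjusted p of 0.0100 and an adjusted p of 0.316 (edgeR). No other gene of the annotation overlaps its exons.

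*Hoxb3*, the next gene of the cluster (chr11:96323326-96347930), had 55, 47 and 39 counts in WT and 105, 79 and 107 counts in *Hbb*-cKO, again without overlap. The log2 fold change was 0.83 ± 0.24 (interval 0.27 to 1.39), with an unadjusted p of 0.00920 and an adjusted p of 0.305 (edgeR). The antisense gene *Hoxb3os* covers 52.9% of its exon bases, and no source used here states whether counting used strand, so reads of both cannot be told apart. *Hoxb3os* had 36, 48 and 32 counts in WT and 73, 42 and 48 counts in *Hbb*-cKO, which overlapped. Summed, the pair had 91, 95 and 71 counts in WT and 178, 121 and 155 counts in *Hbb*-cKO, with a log2 fold change of 0.61 ± 0.24 (adjusted p = 0.447).

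*Hoxa4* (chr6:52189671-52191753), a paralogue of *Hoxb4*, had values in the opposite direction. It had 75, 82 and 107 counts in WT and 55, 65 and 69 counts in *Hbb*-cKO, or 4.49, 4.99 and 6.17 CPM against 3.13, 3.26 and 3.26 CPM. The log2 fold change was -0.70 ± 0.20 (interval -1.16 to -0.24), with an unadjusted p of 0.00803 and an adjusted p of 0.292 (edgeR). The antisense gene *Gm29430* covers 16.0% of its exon bases and added 1 or 2 counts to most libraries, which left the log2 fold change at -0.68. Group 4 as a whole was at 10.1 CPM per kb in WT and 10.4 CPM per kb in *Hbb*-cKO, in which *Hoxa4* took 32.4% and 19.4% and *Hoxb4* 4.93% and 10.9%.

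**Figure D4:**
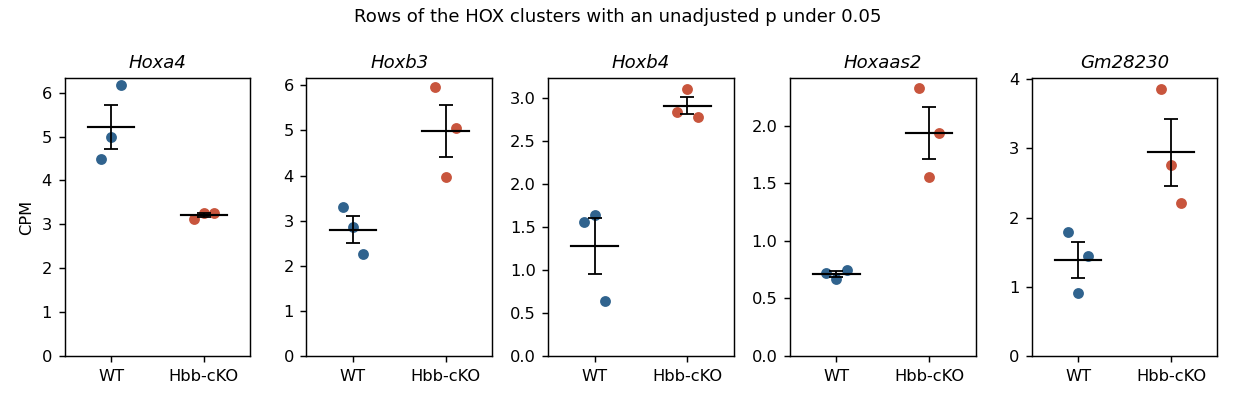
CPM of the 5 tested rows within the HOX clusters with an unadjusted p under 0.05, by genotype, with points for single libraries, long lines for the mean and error bars for the s.e.m. of 3 libraries; the scale differs between panels. *Hoxa4* is lower, and *Hoxb3*, *Hoxb4*, *Hoxaas2* and *Gm28230* are higher, in every *Hbb*-cKO library than in every WT library, and no row passed the adjusted threshold.

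The remaining members of cluster B had log2 fold changes of 0.025 (*Hoxb5*), 0.032 (*Hoxb9*), 0.24 (*Hoxb8*), 0.32 (*Hoxb7*), 0.35 (*Hoxb2*) and 0.52 (*Hoxb6*). All 8 members tested thus had a value above 0, where 47.5% of all genes did, and their median was 0.33. The median was -0.12 in cluster A, -0.030 in cluster C and 0.046 in cluster D, and 0.046 over all 32 HOX genes and -0.014 over all genes tested. WT replicate 3 was the lowest of the 6 libraries for *Hoxb2*, *Hoxb3*, *Hoxb4*, *Hoxb5*, *Hoxb7* and *Hoxb8*, so that these members share a low library as well as a direction. *Hoxb6* was lowest in WT replicate 1 and *Hoxb9* in *Hbb*-cKO replicate 2. WT replicate 3 also had the highest sum of skeletal muscle markers. Without it the log2 fold change of *Hoxb4* was 0.86 and that of *Hoxb3* 0.70, and with the muscle score as a covariate they were 0.84 and 0.80. With a score of the Y-linked genes as a covariate, *Hoxb4* reached 2.02 (adjusted p = 0.0852 by edgeR). That score was -4.83 and -4.81 in WT replicates 1 and 2, 2.87 in WT replicate 3 and 1.84 to 3.09 in *Hbb*-cKO. The score was thus unbalanced between genotypes, and this value leans mainly on WT replicate 3, the lowest library for *Hoxb4*. The part of the neutrophil, endothelial, fibroblast and skin markers in these values, whose sums are given above, was not tested.

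For the upstream DNA, RefSeq windows of GRCm38.p6 from 250 bases before to 50 bases after the start were found for 22 of the 39 genes, as 24 windows. The windows of *Hoxb4*, the member with the largest log2 fold change, and *Hoxd8*, the highest member of cluster D, are shown for comparison, 5′ to 3′ on the strand of the gene, which is the plus strand for both (chr11:96318017-96318316 and chr2:74704365-74704664). Capitals mark matches to the motifs searched on both strands.
Hoxb4 promoter: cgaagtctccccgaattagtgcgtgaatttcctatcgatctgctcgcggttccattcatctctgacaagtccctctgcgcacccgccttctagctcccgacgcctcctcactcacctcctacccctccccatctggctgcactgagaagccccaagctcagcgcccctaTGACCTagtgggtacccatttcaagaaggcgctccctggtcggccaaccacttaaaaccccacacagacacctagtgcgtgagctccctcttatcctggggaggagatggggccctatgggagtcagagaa
Hoxd8 promoter: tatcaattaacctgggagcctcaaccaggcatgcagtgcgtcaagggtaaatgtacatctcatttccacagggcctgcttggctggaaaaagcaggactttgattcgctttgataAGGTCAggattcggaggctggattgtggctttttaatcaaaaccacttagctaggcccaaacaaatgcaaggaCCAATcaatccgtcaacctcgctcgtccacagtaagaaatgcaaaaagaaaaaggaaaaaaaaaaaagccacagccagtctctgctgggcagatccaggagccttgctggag
The single match in *Hoxb4* is AGGTCA on the opposite strand, a half-site read by nuclear receptors, among them retinoic acid receptors. *Hoxd8* has a match to AGGTCA and one to CCAAT, the box read by the factor NF-Y. The half-site AGGTCA occurred in 7 of the 24 HOX windows (29.2%) and in 16.3% of all 32851 windows, and CCAAT in 15 (62.5%) and 37.4%. TATAAA occurred in 4 HOX windows (16.7%) and 13.6% of all, CACGTG in 5 (20.8%) and 7.15%, and TGATNNAT, a site of PBX with HOX, in 4 (16.7%) and 8.85%. GCCATNTT, the site of YY1, was found in 1 (4.17%) and 6.05%. A match describes these letters only.

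Transcripts that lie among the HOX genes were read in the same fit. Of 46 other rows inside the clusters, 12 were tested, none was called, and 2 had an unadjusted p under 0.05, against 10.1% of all genes tested. *Hoxaas2*, a noncoding RNA antisense to *Hoxa3* (chr6:52165674-52169564), had 12, 11 and 13 counts in WT and 41, 31 and 41 counts in *Hbb*-cKO, with a log2 fold change of 1.43 ± 0.29 and an adjusted p of 0.170 (edgeR). It overlaps exons of *Hoxa3* on the opposite strand. As the strand use of the counting is not stated, reads of the overlap cannot be assigned, and this pair was not summed. *Gm28230*, a gene model that runs through *Hoxd3* and *Hoxd4* on the same strand (chr2:74726728-74747918), had 30, 15 and 25 counts in WT and 68, 55 and 47 counts in *Hbb*-cKO, with 1.08 ± 0.34 (adjusted p = 0.329). Both lay above WT in every *Hbb*-cKO library.

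*Gm28230*, *Hoxd4* and *Hoxd3* share exon bases with one another. In all, 52.3% of the exon bases of *Hoxd4* and 62.3% of those of *Hoxd3* also belong to another gene of the same strand. The 3 rows summed to 224, 98 and 191 counts in WT and 300, 296 and 187 counts in *Hbb*-cKO, which overlapped, with a log2 fold change of 0.42 ± 0.34 (adjusted p = 0.740). *Hotair*, the noncoding RNA of cluster C, had 15, 15 and 30 counts in WT and 21, 22 and 17 in *Hbb*-cKO, and *Hoxa11os* had 81, 138 and 89 against 103, 149 and 134. *Hoxa11os* covers 35.0% of the exon bases of *Hoxa11*, and both were highest in replicate 2 of each genotype.

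Among members that do not overlap in the genome, 21 pairs shared an exact run of at least 30 bases. The longest run of each pair had 30 to 52 bases and lay in the homeobox for 19 pairs. A read that falls within such a run could come from either gene. Windows of 50 bases that occur in another HOX gene made up 0.12% of *Hoxb4* and 0 of *Hoxa10*, *Hoxa4*, *Hoxb3*, *Hoxd8* and *Hoxd9*, and the larger shares of *Hoxc10* (6.40%) and *Hoxd4* (11.3%) came from exons that overlap *Hoxc5* and *Hoxd3*.

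The 5 nearest tested protein-coding genes on each side of each cluster were read as their surroundings. Of these 40 genes, none was called and 4 had an unadjusted p under 0.05, a share close to the 10.1% of all genes tested, and their median log2 fold change was 0.017.

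The proteins that work with or upstream of HOX genes were also tested. None of the 9 cofactor genes of the PBX, MEIS and PKNOX families was called, 1 had an unadjusted p under 0.05 (10.1% of all genes tested), and their median log2 fold change was 0.044. That gene was *Meis1*, which binds DNA with posterior HOX proteins, at 8.38, 9.61 and 9.29 CPM in WT and 8.01, 6.77 and 5.76 CPM in *Hbb*-cKO (log2 fold change -0.41 ± 0.18, adjusted p = 0.494 by edgeR). *Pbx2* had the most reads of the list, at 51.1 to 60.2 CPM over all libraries.

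Of 12 limb identity genes, 11 were tested and none was called. Those with an unadjusted p under 0.05, which 10.1% of all genes tested had, were 2 genes, *Tbx5* at a log2 fold change of -0.54 ± 0.18 (adjusted p = 0.353 by edgeR) and *Lmx1b*, the factor of dorsal limb identity, at 0.46 ± 0.20 (adjusted p = 0.494). *Lmx1b* was at 7.55, 5.29 and 6.98 CPM in WT and 10.4, 9.12 and 7.79 CPM in *Hbb*-cKO. *Prrx1*, a marker of limb mesenchyme, had the most reads of the list, at 152 to 177 CPM.

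Polycomb proteins keep HOX genes silent outside their domain and Trithorax proteins keep them active within it. Of 19 such genes, 18 were tested, none was called and 2 had an unadjusted p under 0.05, both with lower values in *Hbb*-cKO, where 10.1% of all genes tested had such a p, 5.22% with lower values. *Cbx7*, a chromodomain subunit of the first Polycomb complex, was at 7.49, 5.90 and 11.7 CPM in WT and 1.93, 2.66 and 5.33 CPM in *Hbb*-cKO, without overlap (log2 fold change -1.33 ± 0.41, adjusted p = 0.331 by edgeR). *Ezh1*, a methyltransferase of the second complex, was at 44.7, 40.3 and 52.6 CPM in WT and 37.7, 34.4 and 37.0 CPM in *Hbb*-cKO (-0.33 ± 0.13, adjusted p = 0.427).

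Retinoic acid, Cdx factors and GDF11 are upstream inputs of the clusters. Of 10 genes, 7 were tested and none was called, and *Cdx2* and *Cdx4* had no count. Of the 7, 2 had an unadjusted p under 0.05, against 10.1% of all genes tested. *Aldh1a2*, which makes retinoic acid, was at 10.2, 8.82 and 11.3 CPM in WT and 13.4, 13.6 and 13.8 CPM in *Hbb*-cKO (log2 fold change 0.43 ± 0.15, adjusted p = 0.368 by edgeR). *Gdf11*, a ligand that turns on posterior HOX genes in the trunk, was at 13.1, 10.8 and 11.2 CPM in WT and 17.4, 17.4 and 13.6 CPM in *Hbb*-cKO (0.46 ± 0.16, adjusted p = 0.368). *Rarg*, a retinoic acid receptor of cartilage, had the most reads of the list, at 120 to 164 CPM.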

How the data were processed

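The authors deposited raw counts per gene for the 6 libraries. For upstream steps, the submitters' processing notes list HISAT2 2.1.0, StringTie, edgeR, fastp 0.19.5 and CASAVA 1.8. The genome build, the settings and the strand option were not given in the sources used here. All 39 HOX genes had the coordinates that GENCODE M21 gives on GRCm38.

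Groups were the genotypes of the labels. Members and lists were chosen with earlier results of these data known. In edgeR 4.0.16 (R 4.3.3), 17175 genes passed filterByExpr (minimum count 10, minimum total 15), counts were scaled by TMM, and a robust quasi-likelihood fit with Benjamini-Hochberg adjustment over all genes tested was used at a threshold of 0.05. Log2 fold changes are *Hbb*-cKO over WT, with the default prior count of the edgeR fit, and intervals are 95%. A prior count of 2 was used only for log2 CPM, such as those behind the muscle and Y-linked scores. CPM per kb used the union of annotated exons. Full statistics were given for the 3 highest members per cluster and for members with an unadjusted p under 0.05 or without overlap. Genes of the cofactor, limb identity, Polycomb and Trithorax, and input lists were named for an unadjusted p under 0.05 or the highest or lowest level. Cell type markers were given as sums, with *Col2a1*, *Acan*, *Pitx1* and *Tbx4* named to check the tissue. The fit was tested on simulated data. Some items are not reported here, although sums and counts over the HOX genes include them. No 2 libraries were alike within sampling noise. Alternatives were DESeq2 1.42.0, RLE factors, 2 other filters, a replicate block, muscle and Y-linked covariates, a threshold of 0.1, counts per kb and leaving out each library. Sums of overlapping rows were added after seeing the data.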

Additional observations from a re-analysis of the deposited data

How the results depend on the processing

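No HOX gene was called at an adjusted p under 0.05 by any of the 13 alternative fits, or at an adjusted p under 0.1 by the reported fit. With the muscle covariate, 1 HOX gene (*Hoxb3*) in place of 3 had an unadjusted p under 0.05. *Hoxb3* and *Hoxb4* stayed above 0 and *Hoxa4* below 0 in all of them, with adjusted p-values from 0.0852 to 0.750. The count of all genes called, 18, was 236 with DESeq2, 60 with no filter, 4 with the replicate block, 2 with the muscle covariate, 52 with the Y-linked covariate and 41 at an adjusted p of 0.1, and 1 to 39 when 1 library was left out (1 without WT replicate 1, 2 without *Hbb*-cKO replicate 3, 6 without *Hbb*-cKO replicate 2 and 39 without WT replicate 3). The HOX median of 0.046 was -0.048 with the muscle covariate, -0.025 with the Y-linked covariate and -0.026 to 0.030 with 1 library left out. The share of cluster A, 48.3% over the 6 libraries, was 40.8% per kb. The cause of these shifts was not tested.

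For the HOX genes given full statistics, 201 log2 fold changes were recomputed, including those for sums of overlapping rows. Of these, 20 changed sign, in 7 genes with reported values from -0.090 to 0.35. Sign changes of the other HOX genes tested were not counted. *Hoxc10* was 0.020 with DESeq2, 0.0049 with RLE factors, 0.012 with no filter, 0.0047 with the replicate block and 0.10 with the muscle covariate, which also gave *Hoxa10* -0.14, *Hoxa11* -0.20 and *Hoxd9* 0.026. The Y-linked covariate gave *Hoxd8* 0.19. With 1 library left out, the values ran from -0.049 to 0.11 for *Hoxc10*, from -0.085 to 0.23 for *Hoxa10*, -0.19 to 0.32 for *Hoxa11*, -0.11 to 0.045 for *Hoxd9*, -0.22 to 0.016 for *Hoxd8*, -0.12 to 0.18 for *Hoxc9* and -0.013 to 0.71 for *Hoxb2*.

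Same-numbered libraries had correlations of -0.025, -0.11 and -0.029 in their deviations from the group means, against -0.074 to 0.097 for libraries of different number. Deviations from a mean of 3 libraries cannot show whether the replicate numbers pair the libraries. The fit with a replicate block called 0 HOX genes, with a smallest adjusted p of 0.502. With 3 libraries a genotype, 19 of the 32 HOX genes tested had intervals within a 2-fold change, and larger differences in the others lay within their intervals.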
